A study of Macaca mulatta with 18 samples.

Results

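The genes described here are the axon guidance genes of 4 ligand families, the semaphorins, Slits, netrins and ephrins, and of the receptors that bind the first 3 of them. They were chosen by symbol, as every gene of the expression matrix whose macaque symbol begins with SEMA, PLXN, SLIT, ROBO, NTN, UNC5, EFNA or EFNB, or is NRP1, NRP2, DCC or NEO1, without the SLITRK genes. This gave 54 of 22345 genes, namely 31 ligands, 21 receptors and 2 genes (UNC50 and UNC5CL) that share only the letters and are kept apart below. The RNA-seq libraries came from wild-type rhesus macaque brain at embryonic day 84, 3 labelled CP and 3 labelled GZ, and the labels do not spell the abbreviations out. Both groups were untreated as far as the labels say. The comparison asks which guidance genes differ in RNA level between CP and GZ.

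Guidance ligands are secreted or membrane-bound proteins that steer axons and migrating neurons by attracting or repelling them. Semaphorins signal through plexins, and most secreted (class 3) semaphorins need a neuropilin as the binding part of the receptor. Slits act through Robo receptors, and netrins attract through DCC and repel through UNC5 receptors. Ephrin-A proteins are tethered to the membrane by a lipid anchor and ephrin-B proteins span it, and both bind Eph receptors. In the developing cortex these families take part in the migration of new neurons, the layering of the cortex, the path of thalamic and callosal axons and the growth of blood vessels.

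Values are log2 FPKM, a level per gene length and library size that the authors normalized with the cqn method, and libraries are given in the order of their numbers 1, 2 and 3. Read depth was unknown. Medians over all genes lay between 1.82 and 1.88, and library profiles correlated at 0.971 to 0.987 across genes within a tissue and at 0.895 to 0.935 between tissues (genes are not independent replicates). The labels do not state that each library is a different animal, and the p-values below cover only library-to-library spread, part of which may be technical. Over 10 Y-linked genes the median was 3.34 in CP 2 and 3.63 in GZ 2, -1.78 in both CP 3 and GZ 3, and 1.40 in CP 1 against -0.17 in GZ 1, so both libraries numbered 1 stand apart. Whether CP 1 and GZ 1 come from 1 animal, from a pool or from exchanged samples cannot be told from the labels and these values, so their tissue labels are used as given, and counts are given with and without them. Of 10 marker lists, 4 had sums that did not overlap and all their tested genes called in 1 direction. All 6 maturing neuron genes (among them NEFL, NEFM and GRIN2B) were higher in CP, with a summed FPKM of 594 to 601 in CP and 202 to 254 in GZ libraries. All 6 cycling cell genes were higher in GZ, with sums of 37.7 to 71.2 in CP and 128 to 253 in GZ libraries. The 4 measured of 7 interneuron and ventral forebrain genes were also all higher in GZ, with sums of 148 to 174 in CP and 348 to 487 in GZ libraries. Vessel markers (endothelium and pericytes, 7 measured of 8) were likewise all higher in CP. The lists of layer neurons (4 of 6 called for CP and 1 for GZ), radial glia (3 of 5 tested for GZ), oligodendrocyte lineage (1 of 4 for CP and 2 for GZ) and astrocytes (1 of 4 for CP and 1 for GZ) had calls for part of their genes. Layer neuron and astrocyte sums were higher in every CP than in every GZ library, and oligodendrocyte lineage sums overlapped. Radial glia sums overlapped too, at 288 to 395 in CP and 338 to 364 in GZ libraries. The part of these cell mixtures in the results on guidance genes was not tested, and in bulk tissue fewer cells of a type and less RNA per cell cannot be told apart.

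Of the 54 genes, 50 had a mean of at least 0 on the log2 scale over the 6 libraries and were tested in one limma fit over all 13460 such genes. Among the 50, 16 had higher levels in CP and 13 in GZ at a Benjamini-Hochberg adjusted p under 0.05. Called genes made up 58.0% of the guidance genes tested (29 of 50), beside 45.4% of all genes tested. By direction, 32.0% of guidance genes were higher in CP, beside 20.9% of all tested genes, and 26.0% were higher in GZ, beside 24.5% of all tested genes. The 3 CP and 3 GZ values did not overlap for 58.0% of guidance genes, beside 56.4% of all tested genes. The size of the difference, regardless of direction, had a median of 0.47 in the guidance genes and 0.35 over all tested genes (log2). Without both libraries numbered 1, 11 guidance genes were called for CP and 10 for GZ. In that fit there were also fewer calls over all genes, 1716 for CP and 1647 for GZ, against 2816 for CP and 3297 for GZ with all libraries.

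Ligands and receptors differed in their balance of calls. Of 28 ligands tested, 10 had higher levels in CP (35.7%) and 5 in GZ (17.9%), with a median CP minus GZ difference of 0.18. Of 21 receptors tested, 6 had higher levels in CP (28.6%) and 8 in GZ (38.1%), with a median difference of 0.02. Over all tested genes 20.9% were higher in CP and 24.5% in GZ, and the median difference was -0.05. Both classes thus lay above the all-gene share for CP, and for GZ only receptors did. Plexins held 7 of the 8 receptor calls in favour of GZ and 1 of the 6 in favour of CP. The GZ share of receptors thus came almost wholly from 1 family, and ROBO2 was the only other receptor called for GZ. The difference between ligands and receptors was not tested. The 10 ligand calls in favour of CP were not firm, with 5 left without CP replicate 3 and 6 left without GZ replicate 2 or without both libraries numbered 1. The receptor calls in favour of CP numbered 6 in each fit that left out 1 library and 5 without both libraries numbered 1. At least 2-fold differences were called for 10 guidance genes, 7 higher in CP and 3 higher in GZ, which is 20.0% of those tested, beside 12.5% of all tested genes.

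**Figure D1:**
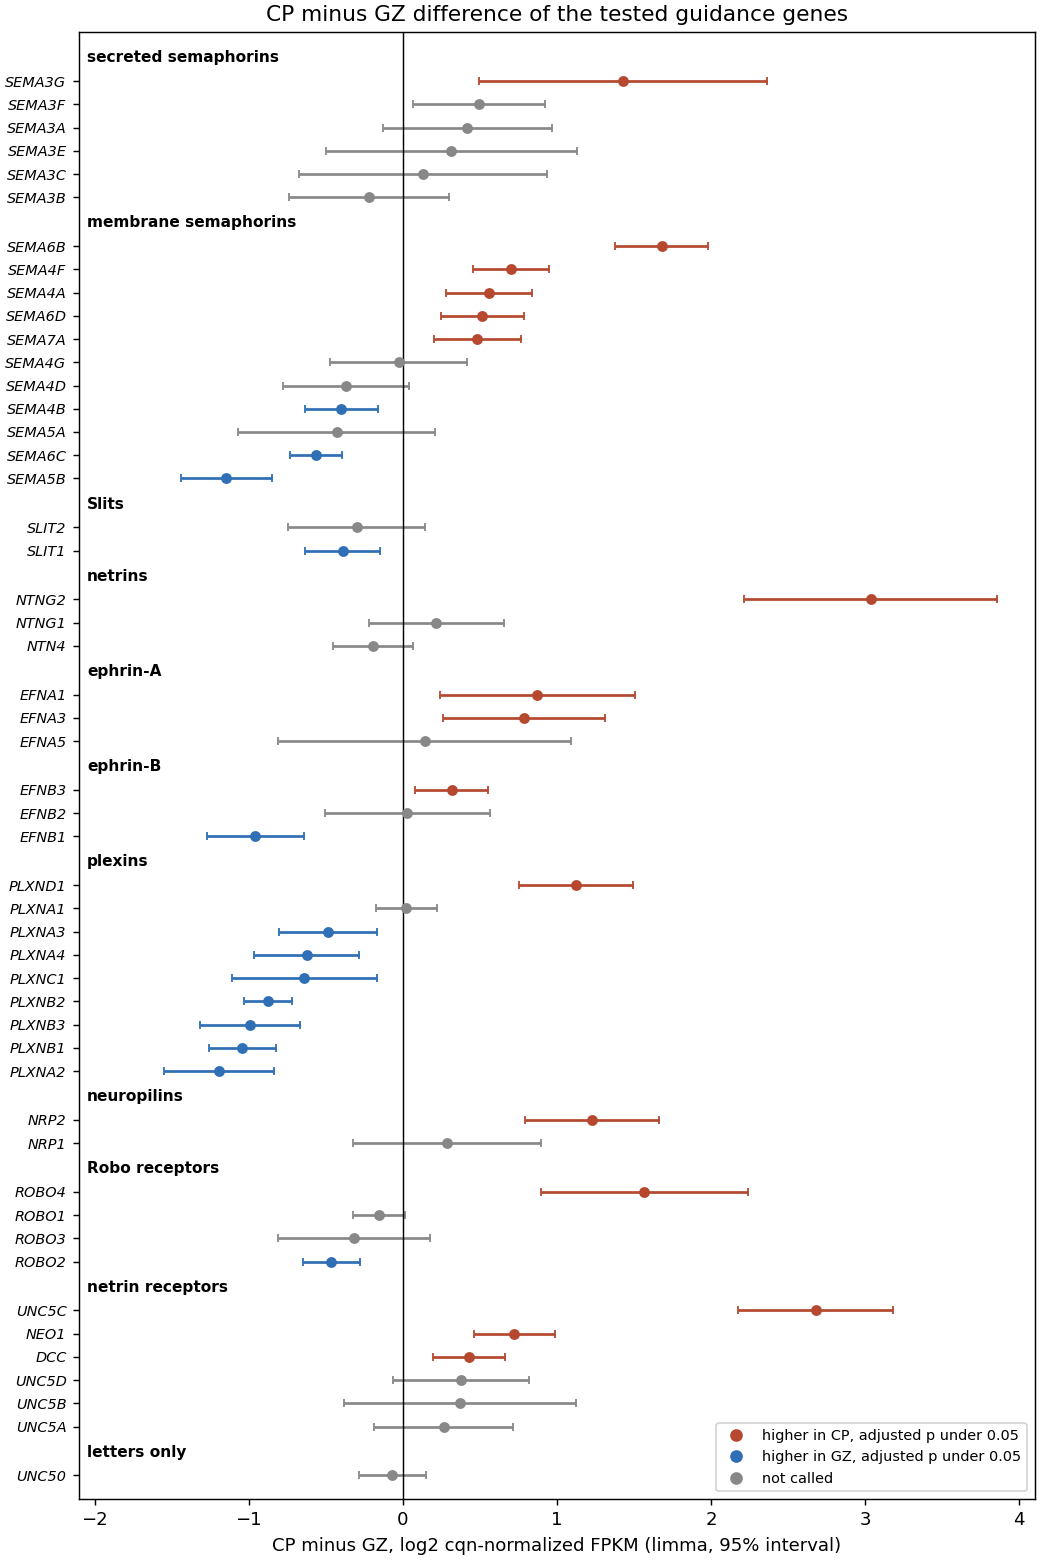
CP minus GZ difference of the 50 tested guidance genes on the log2 FPKM scale (horizontal axis) with 95% intervals from limma, grouped by family, with genes higher in CP in red, genes higher in GZ in blue and genes not called in grey. Plexins lie mostly left of 0 (7 of 9 higher in GZ), and all 6 netrin receptors lie right of 0, 3 of them called.

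Plexins, the signalling receptors of semaphorins, were the family most often called in favour of GZ. Of 9 plexins, 7 were higher in GZ (77.8%, beside 24.5% of all tested genes), PLXND1 was higher in CP and PLXNA1 was not called. All 3 class B plexins were higher in GZ. PLXNB1, a receptor of SEMA4D, had 5.49, 5.25 and 5.40 in CP and 6.46, 6.52 and 6.29 in GZ libraries, so every GZ value lay above every CP value. It was 2.06-fold higher in GZ (log2 difference, CP minus GZ, -1.04 ± 0.09 SE, limma adjusted p = 0.000173). PLXNB2, which in mice guides the migration of neuron precursors, had 6.16, 6.17 and 6.05 in CP and 7.02, 7.03 and 6.95 in GZ libraries (-0.88 ± 0.07 SE, limma adjusted p = 0.000102). PLXNB3, which binds SEMA5A, was lower in level and 1.99-fold higher in GZ, at 2.48 ± 0.10 in CP and 3.48 ± 0.19 in GZ (SD, n = 3 each). The class B differences thus lay between -1.04 and -0.88, although PLXNB3 was far below the other two in level.

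Class A plexins, which pair with neuropilins or bind class 6 semaphorins, split into 3 higher in GZ and 1 not called. PLXNA2, which binds SEMA6A in mice, had 5.15, 4.62 and 5.26 in CP and 6.20 in each of the 3 GZ libraries. Its GZ values were equal to 2 decimals and lay above all CP values, and CP 2 was the lowest. The gene was 2.28-fold higher in GZ (-1.19 ± 0.15 SE, limma adjusted p = 0.000880). PLXNA4 (-0.62 ± 0.15 SE) and PLXNA3 (-0.49 ± 0.14 SE) were also higher in GZ, and both calls were lost without the libraries numbered 1 (limma adjusted p = 0.105 for PLXNA4 and 0.178 for PLXNA3). The PLXNA3 call was lost in 5 of 15 alternatives in all, the others being those without CP replicate 1 or 3 and without GZ replicate 1 or 2 (limma adjusted p from 0.0624 to 0.0738). PLXNA1 averaged 5.42 ± 0.09 in CP and 5.40 ± 0.10 in GZ (SD, n = 3 each), a difference of 0.02 with a 95% interval of -0.17 to 0.22. PLXNC1, the receptor of SEMA7A, was 1.56-fold higher in GZ (-0.64 ± 0.20 SE, limma adjusted p = 0.0341), but its CP 1 value (4.96) lay above its GZ 1 value (4.88). The PLXNC1 call was lost without CP replicate 2 or 3, without GZ replicate 2 or 3 (limma adjusted p from 0.0831 to 0.113), with the replicate number as a block (0.0565) and without a variance trend (0.0579).

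PLXND1, the receptor that SEMA3E binds without a neuropilin, went the other way. It had 4.42, 4.43 and 4.71 in CP and 3.37, 3.13 and 3.70 in GZ libraries, with no overlap. It was 2.18-fold higher in CP (1.12 ± 0.16 SE, limma adjusted p = 0.00130). SEMA3E itself was low, at 0.61 ± 0.54 in CP and 0.29 ± 0.47 in GZ (SD, n = 3 each), and was not called (limma adjusted p = 0.502). Both neuropilins had positive differences and 1 was called. NRP2, the neuropilin that binds SEMA3F, had 4.53, 4.34 and 4.41 in CP and 2.99, 2.96 and 3.65 in GZ libraries. Its GZ 3 value was the highest of GZ and still below every CP value. NRP2 was 2.34-fold higher in CP (1.23 ± 0.19 SE, limma adjusted p = 0.00174). NRP1, the neuropilin that binds SEMA3A, had 4.80, 4.19 and 4.83 in CP and 4.13, 3.95 and 4.88 in GZ libraries, with the highest value of all in GZ 3 (0.29 ± 0.26 SE, limma adjusted p = 0.413).

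**Figure D2:**
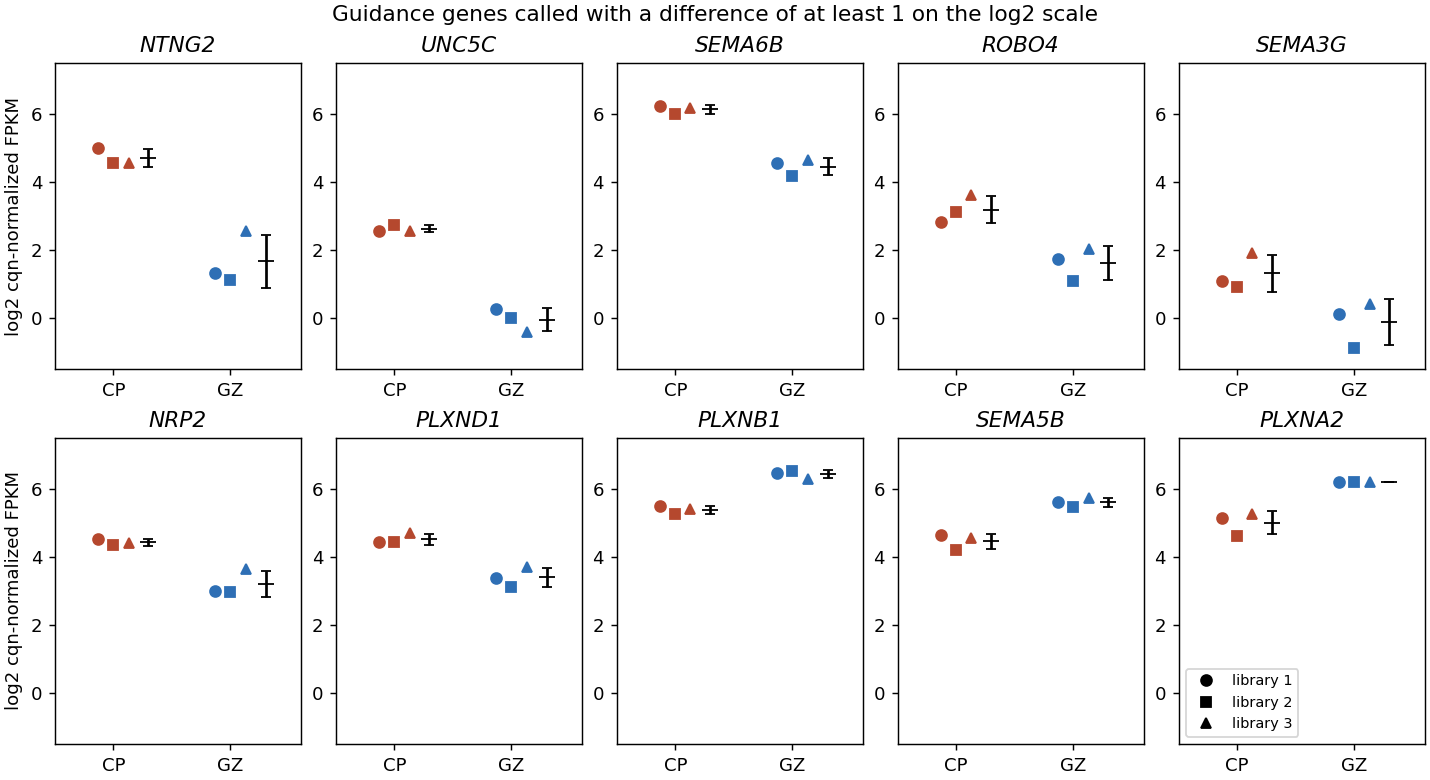
Log2 FPKM (vertical axis) of the 10 guidance genes called with a difference of at least 1, in 3 CP (red) and 3 GZ (blue) libraries, with marker shapes for library numbers and black bars for mean and SD. No gene has overlapping groups, and NTNG2 and UNC5C show the widest gaps, with GZ means of 1.68 and -0.05.

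Membrane-bound semaphorins, which signal between cells in contact, were called in both directions. Of 11 tested, 5 were higher in CP (45.5%, beside 20.9% of all tested genes). Another 3 were higher in GZ (27.3%, beside 24.5%) and 3 were not called. SEMA6B, a transmembrane ligand of PLXNA4 in mice, had 6.24, 5.99 and 6.19 in CP and 4.55, 4.19 and 4.64 in GZ libraries. Its values did not overlap, and it was 3.21-fold higher in CP (1.68 ± 0.13 SE, limma adjusted p = 0.000101). SEMA6D, a ligand of PLXNA1, was 1.43-fold higher in CP (0.52 ± 0.12 SE). SEMA6C, the third measured gene of class 6, had 5.93, 5.90 and 5.97 in CP and 6.47, 6.42 and 6.60 in GZ libraries. It was 1.47-fold higher in GZ (-0.56 ± 0.07 SE, limma adjusted p = 0.000887), so the class 6 genes were called in opposite directions. SEMA5B, which has thrombospondin repeats outside the cell, had 4.63, 4.20 and 4.55 in CP and 5.60, 5.47 and 5.74 in GZ libraries. SEMA5B was 2.21-fold higher in GZ (-1.14 ± 0.13 SE, limma adjusted p = 0.000468), and SEMA5A, of the same class, was not called (-0.43 ± 0.28 SE, limma adjusted p = 0.243).

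Among class 4 semaphorins, SEMA4F (1.63-fold, 0.70 ± 0.11 SE) and SEMA4A (1.47-fold, 0.56 ± 0.12 SE) were higher in CP, and SEMA4B was 1.32-fold higher in GZ (-0.40 ± 0.10 SE). The calls of SEMA4A and SEMA4B were lost without both libraries numbered 1 (limma adjusted p = 0.0687 for SEMA4A and 0.0840 for SEMA4B). SEMA4D, the ligand of PLXNB1, averaged 4.43 ± 0.09 in CP and 4.80 ± 0.38 in GZ (SD, n = 3 each). It was not called (limma adjusted p = 0.124), and without GZ replicate 2 it was (-0.58, limma adjusted p = 0.00879). SEMA4G was not called either (-0.03 ± 0.19 SE). SEMA7A, which a lipid anchor holds to the membrane, was 1.40-fold higher in CP (0.48 ± 0.12 SE, limma adjusted p = 0.0140), while its receptor PLXNC1 was called in favour of GZ. The SEMA7A call was lost without CP replicate 3, GZ replicate 1 or both libraries numbered 1 (limma adjusted p = 0.0512, 0.0564 and 0.138 in that order). SEMA4C, a ligand of PLXNB2, was below the minimum level for testing, with -1.94 to -1.53 in CP and a mean of -1.01 ± 0.07 in GZ (SD, n = 3).

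Secreted semaphorins were mostly not called, and their libraries varied more. Of 6 tested, SEMA3G was higher in CP and 5 were not called. The median SD within a tissue was 0.43 for these 6 genes and 0.16 for the 11 membrane-bound semaphorins, beside 0.17 over all tested genes. These 6 genes were also lower in level, with a median of 2.25, against 4.17 for the membrane-bound semaphorins and 3.89 over all tested genes. The part of level in the spread was not tested. SEMA3G, which binds NRP2, had 1.11, 0.92 and 1.93 in CP and 0.13, -0.88 and 0.42 in GZ libraries. The groups did not overlap, and SEMA3G was 2.69-fold higher in CP (1.43 ± 0.40 SE, limma adjusted p = 0.0218), a fold that rests on low GZ values. Its call was lost without CP replicate 3, without GZ replicate 2 and without both libraries numbered 1 (limma adjusted p = 0.0759, 0.0505 and 0.0708 in that order), and with a pseudocount of 1 the difference was 0.85. SEMA3C, the secreted semaphorin with the highest level, had 5.06, 4.43 and 4.92 in CP and 4.44, 4.06 and 5.52 in GZ libraries. Its highest and lowest values were both in GZ (0.13 ± 0.35 SE). SEMA3A, a repellent of cortical axons, had 3.20, 3.00 and 3.24 in CP and 2.79, 2.21 and 3.19 in GZ libraries (0.42 ± 0.24 SE, limma adjusted p = 0.186). SEMA3F, the ligand of NRP2, averaged 4.17 ± 0.27 in CP and 3.67 ± 0.29 in GZ (SD, n = 3 each, limma adjusted p = 0.0614). Without GZ replicate 3, in which SEMA3A, SEMA3C and SEMA3F all had their highest GZ value, SEMA3A (0.65, limma adjusted p = 0.0335) and SEMA3F (0.64, limma adjusted p = 0.0214) were called higher in CP. SEMA3D was not tested, with -0.42, 0.10 and -0.08 in CP and -0.99, -1.63 and -0.84 in GZ libraries.

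The largest difference among all guidance genes was that of NTNG2, a netrin-G that a lipid anchor holds to the membrane and that binds the adhesion protein NGL-2 (LRRC4) rather than the netrin receptors. NTNG2 had 5.02, 4.55 and 4.58 in CP and 1.32, 1.14 and 2.58 in GZ libraries. All CP values lay above all GZ values, and GZ 3 was well above the other two GZ libraries. NTNG2 was 8.20-fold higher in CP (3.04 ± 0.35 SE, limma adjusted p = 0.000548). NTNG1, the other netrin-G, had a mean of 2.24 ± 0.21 in CP and 2.03 ± 0.25 in GZ and was not called, nor was the secreted netrin NTN4 at 4.11 ± 0.08 in CP and 4.30 ± 0.16 in GZ (SD, n = 3 each). NTN1, NTN3 and NTN5 were not analysed here.

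All 6 netrin receptors had positive differences, from 0.27 to 2.68. Only 3 were called higher in CP (50.0%, beside 20.9% of all tested genes). UNC5C, a receptor that turns the response to netrin into repulsion, had 2.58, 2.74 and 2.58 in CP and 0.26, 0.01 and -0.41 in GZ libraries. Its CP values lay close together and far above every GZ value. UNC5C was 6.40-fold higher in CP (2.68 ± 0.22 SE, limma adjusted p = 0.000117). The GZ values are low, and with a pseudocount of 1 the difference was 1.86, still called. NEO1, a receptor of netrins and of repulsive guidance molecules (RGM), had 5.95, 5.78 and 5.86 in CP and 5.04, 5.00 and 5.38 in GZ libraries. NEO1 was 1.65-fold higher in CP (0.72 ± 0.11 SE, limma adjusted p = 0.00185). DCC, the attractive netrin receptor, was 1.35-fold higher in CP (0.43 ± 0.10 SE, limma adjusted p = 0.0106), a call that was lost without both libraries numbered 1 (limma adjusted p = 0.0981). The other UNC5 receptors were not called, and their CP and GZ libraries overlapped. UNC5D, which in mice marks migrating upper-layer neurons, averaged 4.72 ± 0.27 in CP and 4.34 ± 0.34 in GZ (SD, n = 3 each). UNC5A had a mean of 2.81 ± 0.21 in CP and 2.54 ± 0.32 in GZ, and UNC5B, which is also known from blood vessels, 2.88 ± 0.60 in CP and 2.50 ± 0.43 in GZ (SD, n = 3 each).

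Of the Slit and Robo genes, SLIT1 and ROBO2 were higher in GZ, and ROBO4, the Robo gene of blood vessels, was higher in CP. SLIT1 was 1.31-fold higher in GZ, at 5.14 ± 0.14 in CP and 5.53 ± 0.15 in GZ (SD, n = 3 each, -0.39 ± 0.11 SE, limma adjusted p = 0.0188), and without CP replicate 2 or 3 it was not called (limma adjusted p = 0.0571 and 0.0585). SLIT2 was not called (-0.30 ± 0.19 SE, limma adjusted p = 0.239), and SLIT3 was too low to be tested, with a mean of -1.27 in CP and -1.10 in GZ. ROBO2, a Slit receptor of neurons and progenitors, had 6.15, 6.02 and 5.97 in CP and 6.47, 6.45 and 6.61 in GZ libraries. Its groups did not overlap, and it was 1.38-fold higher in GZ (-0.46 ± 0.08 SE, limma adjusted p = 0.00270). ROBO1 had 5.78, 5.92 and 5.78 in CP and 6.01, 6.01 and 5.93 in GZ libraries, without overlap but with a difference that was not called (-0.16 ± 0.07 SE, limma adjusted p = 0.115). ROBO3, which in mammals acts in commissural axons, was low and not called (-0.32 ± 0.21 SE). ROBO4, a Robo of endothelial cells, had 2.83, 3.12 and 3.63 in CP and 1.74, 1.08 and 2.05 in GZ libraries. It was 2.97-fold higher in CP (1.57 ± 0.29 SE, limma adjusted p = 0.00377).

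Vessel markers were higher in CP. The summed FPKM of the 7 endothelium and pericyte genes was 103.9, 106 and 149 in CP and 41.0, 25.6 and 54.6 in GZ libraries, and their differences ran from 1.12 (TEK) to 2.09 (FLT1). None of the 7 was at 0, and the lowest single value was 0.81 on the log2 scale. Within each tissue ROBO4, SEMA3G and PLXND1 had their highest value in library 3 (CP 3 and GZ 3) and, in GZ, their lowest in GZ 2, as did this sum. The same order held for other guidance genes, among them NRP1, UNC5D and SEMA4D, which were not called, and SEMA6C, which was higher in GZ. This order of 3 libraries per tissue was thus not particular to ROBO4, SEMA3G and PLXND1, and no conclusion on cell type is drawn from it. The part of vessel cells in the results for these genes was not tested. Of the 6 meningeal and fibroblast genes none was called, with sums of 72.5 to 93.6 in CP and 80.4 to 116 in GZ libraries, and of 3 measured microglial genes none was called.

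Ephrins, the ligands of Eph receptors, were called in both directions. EFNB1 had 4.58, 4.05 and 4.28 in CP and 5.16, 5.32 and 5.30 in GZ libraries, without overlap. EFNB1 was 1.94-fold higher in GZ (-0.96 ± 0.14 SE, limma adjusted p = 0.00133). EFNB3 was 1.25-fold higher in CP (0.32 ± 0.10 SE, limma adjusted p = 0.0361), the least stable of the 29 calls, lost in 9 of 15 alternatives. EFNB2, which also marks arterial endothelium, was not called, with 5.14, 4.67 and 5.15 in CP and 4.82, 4.58 and 5.47 in GZ libraries. EFNA1 (1.83-fold, 0.87 ± 0.27 SE, limma adjusted p = 0.0327) and EFNA3 (1.72-fold, 0.79 ± 0.23 SE, limma adjusted p = 0.0240) were higher in CP. EFNA1 was no longer called when either CP 2, CP 3 or GZ 2 was left out (limma adjusted p from 0.0914 to 0.105) or with the replicate number as a block (0.0509). The EFNA3 call was lost when any one library numbered 2 or 3 was left out (limma adjusted p from 0.0555 to 0.0719). EFNA5, which is known for gradients across the cortex, spread widely within both tissues, with 3.26, 4.28 and 4.05 in CP and 4.15, 4.23 and 2.78 in GZ libraries (0.14 ± 0.41 SE). EFNA2 was not analysed here. Among their receptors, 12 of 14 Eph genes were tested. Of these, 5 had higher levels in CP (41.7%, beside 20.9% of all tested genes). Another 3 were higher in GZ (25.0%), near the 24.5% of all tested genes. The calls were led by EPHA10 (2.26 ± 0.23 SE) and EPHA7 (1.74 ± 0.18 SE) in CP and by EPHA5 (-1.03 ± 0.11 SE) and EPHA4 (-1.01 ± 0.26 SE) in GZ.

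In level, receptors stood above ligands. The median over tested receptors was 4.72 in CP and 4.70 in GZ, against 4.09 in CP and 3.70 in GZ for ligands, and 3.91 in CP and 3.90 in GZ for all tested genes. A mean above 5 over the 6 libraries was reached by 9 of 21 receptors (42.9%), by 5 of 28 ligands (17.9%) and by 25.8% of all tested genes. Most of those receptors were plexins (PLXNA1, PLXNA2, PLXNA3, PLXNA4, PLXNB1 and PLXNB2), and the others were ROBO1, ROBO2 and NEO1. The median level over the 6 libraries was 5.60 for plexins, 4.16 for Robo receptors, 4.14 for neuropilins and 3.61 for netrin receptors. The higher level of receptors thus came mainly from the plexins. The top of the order differed by tissue. In CP the highest levels were those of SEMA6B (6.14 ± 0.13), PLXNB2 (6.13 ± 0.07), PLXNA3 (6.06 ± 0.25), ROBO2 (6.05 ± 0.09) and SEMA6C (5.94 ± 0.04), and the first 4 did not differ from one another beyond the SD, with gaps of 0.01 to 0.07 between them, while SEMA6C lay 0.11 below ROBO2, more than the SD of either (SD, n = 3). In GZ PLXNB2, with 6.95 to 7.03, stood alone, 0.45 above PLXNA3 (6.55 ± 0.16). Then came ROBO2 (6.51 ± 0.09), SEMA6C (6.50 ± 0.09) and PLXNB1 (6.42 ± 0.12), with gaps of 0.04, 0.01 and 0.07 to the gene before, no larger than the SD (n = 3). SEMA6B, at rank 1 of 54 in CP, was at rank 21 in GZ, while PLXNA2 was at rank 15 in CP and 6 in GZ.

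**Figure D3:**
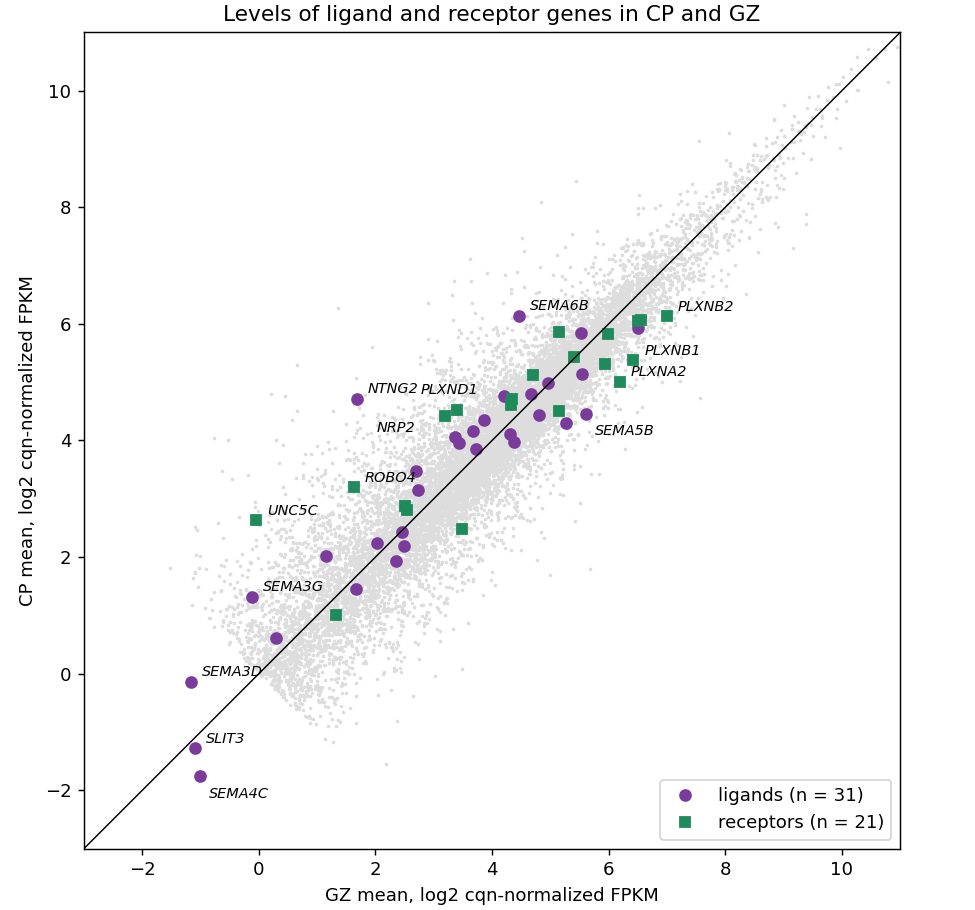
Mean log2 FPKM in CP (vertical axis) and GZ (horizontal axis) of 31 ligand genes (purple circles) and 21 receptor genes (green squares) over all tested genes (grey), with the line of equal level. NTNG2, UNC5C and SEMA6B lie well above the line, and PLXNA2, PLXNB1 and SEMA5B lie below it.

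Summed by family on the linear scale, plexin RNA was lower in CP. The 9 plexins added up to 343, 344 and 356 FPKM in CP and 549, 553 and 527 FPKM in GZ libraries. Their sum in CP was thus 0.64 of that in GZ, with a narrow spread in each tissue. The 6 netrin receptors summed to 135, 144 and 144 FPKM in CP and 92.6, 82.7 and 109 FPKM in GZ libraries. The 3 netrin genes summed to 53.6, 45.8 and 46.4 FPKM in CP and 25.4, 25.2 and 31.8 FPKM in GZ libraries. NTNG2 made up 60.4%, 51.2% and 51.4% of the netrin sum in CP and 9.80%, 8.73% and 18.8% in GZ libraries. The 12 membrane-bound semaphorins had near equal sums, of 281 ± 8.66 FPKM in CP and 276 ± 27.96 FPKM in GZ (SD, n = 3 each). Within that sum the share of SEMA6B was 23.5% to 26.2% in CP and 7.28% to 8.60% in GZ libraries. Ligand sums overlapped between tissues, at 551 to 594 FPKM in CP and 498 to 623 FPKM in GZ. Receptor sums did not, at 663 to 681 FPKM in CP and 816 to 843 FPKM in GZ. Plexins were the largest part of the receptor sum, and the lower CP sum did not hold for each receptor family. Robo sums were lower in CP too (132 to 136 FPKM in CP and 157 to 165 FPKM in GZ). Netrin receptor sums were higher in CP, and neuropilin sums overlapped, with means of 46.4 FPKM in CP and 30.3 FPKM in GZ. No test was made on these sums.

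**Figure D4:**
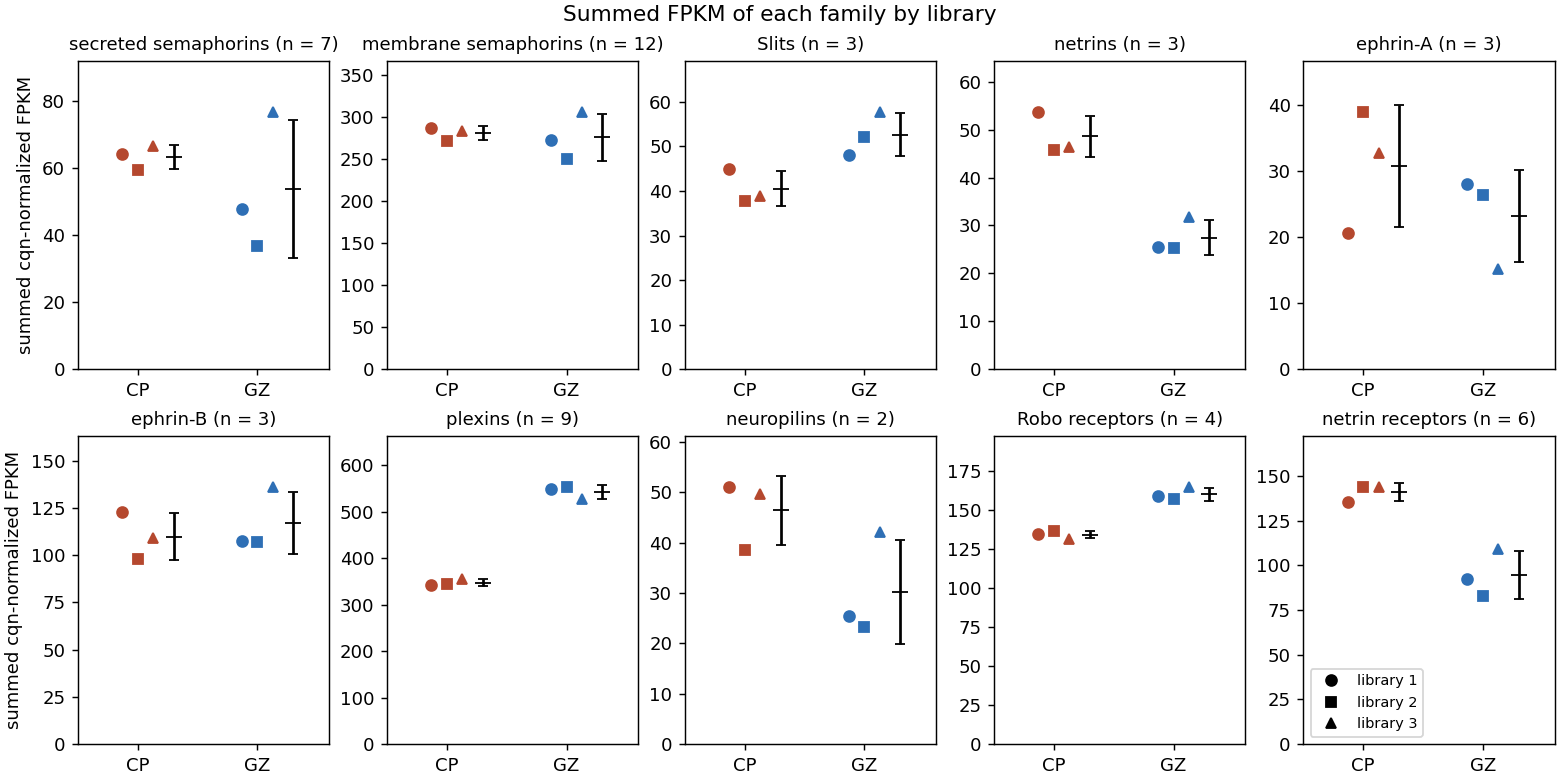
Summed FPKM (vertical axis, from 0) of the 10 guidance families in 3 CP (red) and 3 GZ (blue) libraries, with marker shapes for library numbers and black bars for mean and SD. Plexin, Robo and Slit sums are lower in every CP than in every GZ library, netrin and netrin receptor sums are higher, and the other sums overlap.

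A ratio of related genes within a library does not change when the library is scaled by a factor. The 6 pairs given were chosen after their values were seen, as related genes that differed, so the ratios are a description without a test. UNC5C over UNC5D had log2 ratios of -1.83, -2.11 and -2.30 in CP and -4.14, -3.96 and -5.04 in GZ libraries. SEMA6B over SEMA6C had 0.31, 0.09 and 0.21 in CP and -1.92, -2.23 and -1.96 in GZ libraries, so SEMA6B was the more abundant of the pair in every CP library and the less abundant in every GZ library. NTNG2 over NTNG1 had 2.80, 2.09 and 2.52 in CP and -0.93, -0.95 and 0.83 in GZ libraries, with GZ 3 apart. NRP2 over NRP1 had means of -0.18 ± 0.30 in CP and -1.12 ± 0.12 in GZ, and EFNB3 over EFNB1 had means of 1.54 ± 0.19 in CP and 0.27 ± 0.14 in GZ (SD, n = 3 each). SEMA4F over SEMA4B was near 0 in CP (0.09 ± 0.13) and -1.01 ± 0.08 in GZ (SD, n = 3 each).

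**Figure D5:**
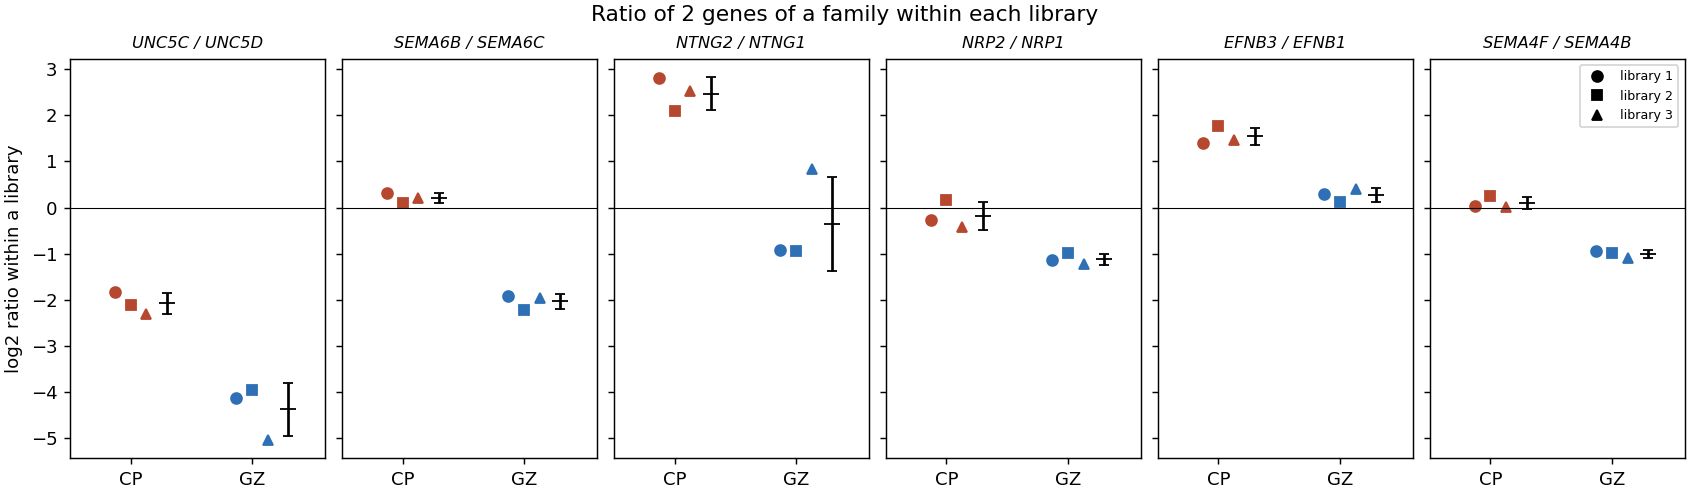
Log2 ratio of 2 genes of a family within each library (vertical axis) for 6 pairs, in 3 CP (red) and 3 GZ (blue) libraries, with marker shapes for library numbers and black bars for mean and SD. CP ratios lie above GZ ratios in each pair, and for SEMA6B over SEMA6C the sign differs between tissues.

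Genes that act with these ligands and receptors were called slightly more often than all genes, with the excess on the CP side. Of 43 tested partner genes, 51.2% were called, beside 45.4% of all tested genes. Higher levels in CP were found for 13 (30.2%, beside 20.9% of all tested genes). For GZ there were 9 (20.9%, beside 24.5% of all tested genes). LRRC4C, the NGL-1 partner of NTNG1, was higher in CP (1.80 ± 0.16 SE), whereas NTNG1 itself was not called. ABLIM1 (2.50 ± 0.23 SE), an actin-binding relative of a netrin pathway gene of the worm Caenorhabditis elegans, and NGEF (1.52 ± 0.45 SE), the ephexin that acts below EphA receptors, were also higher in CP. The adhesion protein L1CAM, a part of SEMA3A receptors, was higher in CP as well (1.26 ± 0.15 SE). Among genes higher in GZ were DPYSL4 (-1.09 ± 0.11 SE), a relative of the semaphorin signal protein CRMP2, FLRT1 (-0.99 ± 0.15 SE), of a family that binds UNC5 receptors, and the kinase gene ABL1 (-0.81 ± 0.13 SE), which acts in Robo signalling. The repulsive guidance genes RGMB (-0.72 ± 0.17 SE) and RGMA (-0.56 ± 0.12 SE) were both higher in GZ, while their receptor gene NEO1 was higher in CP. CRMP2 itself (DPYSL2) was higher in CP (0.53 ± 0.07 SE) and DPYSL3 higher in GZ (-0.50 ± 0.07 SE).

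Some of these genes lie side by side in the genome. In the order of protein-coding genes of the RefSeq assembly T2T-MMU8v2.0, EFNA1 and EFNA3 are direct neighbours and were both higher in CP (0.87 and 0.79). ROBO1 and ROBO2 are neighbours, with differences of -0.16 and -0.46. ROBO3 and ROBO4 are neighbours and had differences of -0.32 and 1.57, of which the second was called. SEMA3D, SEMA3A and SEMA3E follow each other, with differences of 1.02, 0.42 and 0.32, none of them called or, for SEMA3D, tested. The order gives no distances, so whether any of these neighbours lie close enough to share reads is not known here. The sources used here do not say whether reads were counted by strand, so any shared reads could not be told apart. Of the 2 genes that match by letters, UNC50 was not called (5.19 ± 0.11 in CP and 5.26 ± 0.11 in GZ, SD, n = 3 each) and UNC5CL was too low to be tested.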

How the data were processed

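RNA was measured by RNA-seq from total RNA (TruSeq kit, per the labels' protocols) in 3 CP and 3 GZ libraries, grouped by sample title. Per the labels, the authors deposited cqn-normalized FPKM on a log2 scale. For alignment tools and builds the submitters' processing notes list STAR, rheMac8 and Mmul_8.0.1, with no roles, and the sources used here name neither read counter nor annotation. Normalization with cqn removes effects of GC content and length and forces libraries to similar distributions, so differences are relative to the other genes. Gene identifiers were paired with symbols by a reference table (14700 of 22345 matched). Another 5 genes that match the rule had no row and were not analysed here.

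Genes with a mean of at least 0 were fitted with limma 3.58.1 in R 4.3.3 (lmFit, eBayes with trend), CP minus GZ, without a block or pseudocount, with Benjamini-Hochberg adjustment over 13460 genes. The fit was tested on simulated data. Summaries and figures used Python 3.11.15, pandas 2.3.3 and matplotlib 3.10.9. Values in every library are given for called genes with a difference of at least 1 and for others where a result turns on them, which were chosen after their values were seen. Members, lists and tests were chosen with earlier results of these data known. Alternatives changed the low-value filter, pseudocount (1), centring, quantile normalization, variance model, block and set of libraries. Hi-C, DNase and CTCF files were not used, since no gene coordinates on their build were at hand, and the planned description of promoter motifs was not made.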

Additional observations from a re-analysis of the deposited data

How the results depend on the processing

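Of the 29 called guidance genes, 17 were called in each of the 15 alternatives tried, and none of the 29 turned its sign. A minimum of 1, under which 48 genes were tested, median centring, quantile normalization, robust variances and a pseudocount of 1 ended no call among the genes they tested. Fitting without a low-value filter ended the call of EFNB3, and variances without a trend ended those of EFNB3 and PLXNC1. The number was not used as a block because the labels do not say that it marks an animal. The sample titles do give the CP and GZ library of a number the same code, and whether it marks a shared animal is unknown. Deviations of CP and GZ libraries of the same number correlated at -0.38, 0.30 and 0.35 for numbers 1, 2 and 3. For libraries of different numbers the correlations ran from -0.52 to 0.20. Numbers 2 and 3 each matched between CP and GZ in their Y-linked medians, and number 1 did not. With the replicate block 14 guidance genes were called for CP and 12 for GZ, against 16 for CP and 13 for GZ, and all-gene counts were 2817 for CP and 3300 for GZ. Leaving out 1 library gave 11 to 17 guidance genes for CP and 10 to 12 for GZ, 5 to 11 ligands for CP and 4 to 6 for GZ, and 6 receptors for CP and 6 to 7 for GZ. Without both libraries numbered 1, all-gene counts were 1716 for CP and 1647 for GZ, with 6 ligands for CP, in a fit of fewer samples.

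Differences near 0 turned sign when libraries were left out, and none of these was called in any fit. With 1 library left out, EFNB2 ranged from -0.16 without GZ replicate 2 to 0.29 without GZ replicate 3, and SEMA4G from -0.16 without GZ replicate 1 to 0.11 without GZ replicate 3. PLXNA1 then ranged from -0.0198 without GZ replicate 2 to 0.074 without GZ replicate 3, EFNA5 from -0.33 without GZ replicate 3 to 0.44 without CP replicate 1, and SEMA3C from -0.18 without GZ replicate 2 to 0.55 without GZ replicate 3. Without both libraries numbered 1 the differences were -0.12 for EFNB2, -0.22 for SEMA4G, 0.06 for PLXNA1, 0.66 for EFNA5 and -0.12 for SEMA3C. The cause was not tested. The depth is unknown, and the 4 genes too low to be tested are given by their values only.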
